A study of Mus musculus with 3 samples.

Results

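The Sall genes (Sall1, Sall2, Sall3 and Sall4) encode the vertebrate spalt-like zinc finger transcription factors. They were taken by symbol from the deposited tables, which gave 4 of 55536 annotated genes and 12 of 141862 annotated transcripts. Their RNA was measured by total RNA-seq in 3 libraries of F121-9, a line of mouse embryonic stem (ES) cells from a cross of the Cast and 129 strains. All libraries come from this 1 line at passage 14, each from 400 ng of RNA, with no treatment, deletion or transgene in the labels, which give neither sex nor age. They are labelled as biological replicates 1, 2 and 3 and form 1 group, so nothing is compared between conditions. The p-values test spread between these libraries, or differences between genes, transcripts or quantifications within them. They cover only these samples, whose spread may be technical. Levels are in TPM, transcript abundance scaled to transcript length and library size, and coordinates are on mm10.

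SALL proteins carry pairs of C2H2 zinc fingers along their length and a short motif at the amino end that recruits NuRD, a complex of a chromatin remodeller and histone deacetylases, and they mostly repress transcription. Sall4 is needed for the early epiblast and is used as a marker of ES cells and of germ cells, where its protein binds AT-rich DNA and works with OCT4 and NANOG. Sall1 is best known from kidney development, Sall3 from limb and nervous system development, and Sall2 from eye and neural tissue and the control of cell growth.

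Each library was quantified in the deposited tables by 2 routes, called RSEM-style and kallisto-style after their column layouts. Values are RSEM-style unless stated. The libraries held 9575747 to 10425623 estimated counts over annotated genes in the RSEM-style tables and 17353084 to 18798954 in the kallisto-style tables. A count of 0 allows up to 3 counts, which is 0.288 to 0.313 CPM (counts scaled to library size). A gene was called expressed where every library had a TPM of at least 1, which held for 13113 genes (23.6% of all) and 52.1% of protein-coding genes. Replicate 1 stood apart from the others by transcript length, and the values of the Sall genes are given by library for this reason.

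Sall4, Sall1 and Sall3 were expressed, at levels that ran from high to low among expressed genes, and Sall2 was not. Sall4 was at 125 ± 7.13 TPM (SD, n = 3), Sall1 at 26.6 ± 2.83, Sall3 at 3.56 ± 0.446 and Sall2 at 0.507 ± 0.116 TPM. The median expressed protein-coding gene was at 19.7 TPM, so Sall4 and Sall1 lay above the middle and Sall3 below it. Among 22028 protein-coding genes ordered by mean TPM they ranked 1254, 4830, 9877 and 12839. In the kallisto-style tables the order was the same, at 90.3 ± 10.6, 20.8 ± 2.85, 3.09 ± 0.641 and 0.384 ± 0.0903 TPM.

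**Figure D1:**
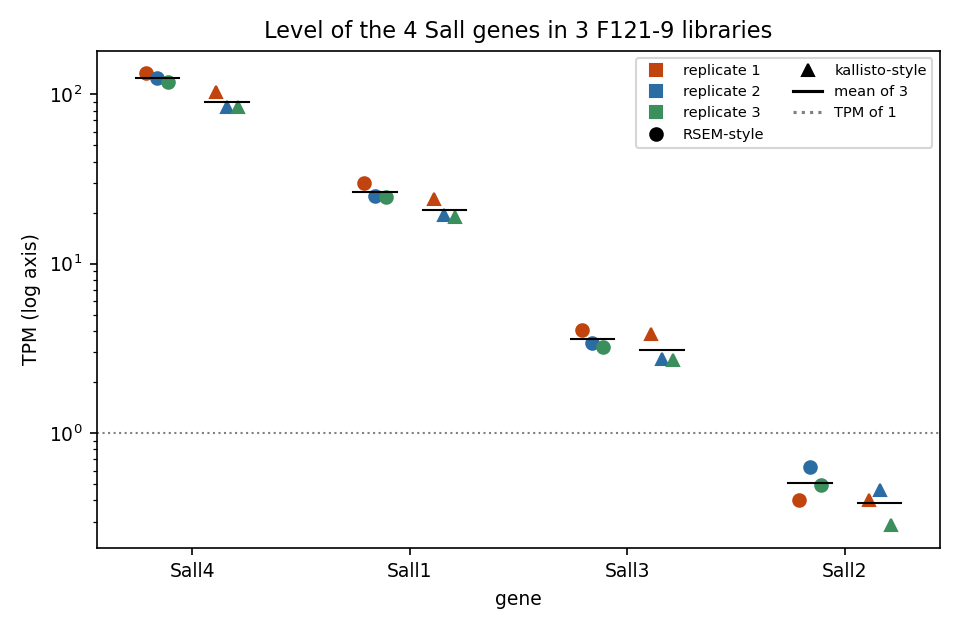
TPM of the 4 Sall genes on a log axis, with 1 point per library (circles RSEM-style, triangles kallisto-style, colours for replicates) and a line at the mean of 3. The genes do not overlap with each other in either quantification, and only Sall2 lies under the dotted line at a TPM of 1.

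Sall4 (ENSMUSG00000027547.17, chromosome 2, 168748332 to 168767943, minus strand) made up most of the family's RNA. It was at 132.74, 124.5 and 118.54 TPM in replicates 1, 2 and 3, on 3459, 3007 and 3020 estimated counts. Replicate 1 was highest and replicate 3 lowest. Its share of the summed TPM of the 4 genes was 80.4 ± 0.812% (n = 3), with Sall1 at 17.0 ± 0.767%, Sall3 at 2.28 ± 0.136% and Sall2 at 0.328 ± 0.0854%. In the kallisto-style tables the Sall4 share was 78.9 ± 0.472%.

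The annotation gives Sall4 7 transcripts, and 3 of them share the last exons and differ at exon 2, the long exon that holds most of the zinc fingers. Sall4-201 (5073 nt, 1067 codons) has exon 2 whole, from 168754434 to 168756800, and its translation holds 8 matches to the C2H2 finger pattern. Sall4-203 (3741 nt, 623 codons) keeps only the 5′ part of that exon, from 168755766 to 168756800, and has 3 matches. Sall4-202 (2534 nt, 278 codons) skips the exon and has 3 matches. Little annotated sequence belongs to Sall4-202 or Sall4-203 alone. Of the 2504 31-base words of Sall4-202, 26 (1.04%) occur in no other Sall4 transcript, and for Sall4-203 it is 26 of 3711 (0.701%). For Sall4-201 it is 1173 of 5043 (23.3%). Since all exons of Sall4-202 and Sall4-203 lie within those of Sall4-201, the words of their own are those that span an exon join. The joins are shown here because only joins set these 2 forms apart. Their estimated levels also divide the reads of shared stretches between forms, and reads over the joins were not counted here. The words of Sall4-201 alone lie mostly in the body of exon 2, and its join of exons 1 and 2 is also that of Sall4-203. The joins are from the GENCODE M21 transcripts, 30 bases to each side, with the downstream exon in capitals.
Sall4-201 and Sall4-203 exons 1 and 2: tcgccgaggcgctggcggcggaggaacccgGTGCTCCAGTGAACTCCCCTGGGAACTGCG
Sall4-202 exons 1 and 2: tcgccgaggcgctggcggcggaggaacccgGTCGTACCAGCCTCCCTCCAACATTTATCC
Sall4-203 exons 2 and 3: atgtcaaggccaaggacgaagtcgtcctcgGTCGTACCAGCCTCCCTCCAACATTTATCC
Sall4-201 exons 2 and 3: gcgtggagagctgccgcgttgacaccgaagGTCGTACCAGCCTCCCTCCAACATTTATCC

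**Figure D2:**
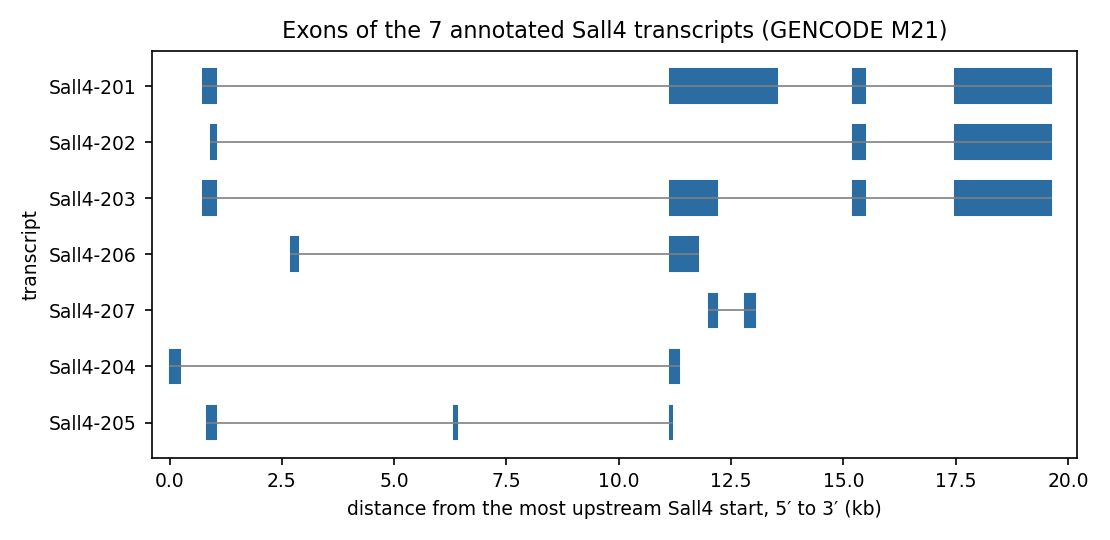
Exons (boxes) of the 7 annotated Sall4 transcripts, drawn to scale in kilobases from the most upstream start, 5′ to 3′. Sall4-202 lacks the long exon near 12 kb that Sall4-201 has whole and Sall4-203 in part, and Sall4-206 starts at an exon of its own.

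The full-length form and the form that skips exon 2 had overlapping levels in the RSEM-style tables, and the full-length form was higher in the kallisto-style tables. Sall4-201 was at 61.84, 54.14 and 53.64 TPM in replicates 1, 2 and 3. Sall4-202 was at 58.75, 59.48 and 55.78 TPM. Their ranges overlapped, and Sall4-201 was the higher in replicate 1 only, so the difference of their shares was 2.33, -4.29 and -1.81 percentage points (mean -1.26 ± 3.34, p = 0.75 in a two-sided exact permutation test that flips signs over libraries). In the kallisto-style tables Sall4-201 was at 55.3, 44.4 and 45.6 TPM and Sall4-202 at 34.3, 31.3 and 28.8 TPM. There the ranges did not overlap, and the difference of shares was 20.5, 15.5 and 19.9 points in favour of Sall4-201 (mean 18.6 ± 2.73, p = 0.25 in the same exact test, which cannot go lower with 3 libraries).

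The lead of Sall4-201 also depends on whether RNA molecules or reads are compared. As a share of estimated counts, which favours the longer transcript, Sall4-201 took 65.3 ± 1.31% and Sall4-202 32.1 ± 1.70% in the RSEM-style tables, a gap of 33.2 ± 3.00 points. The kallisto-style gap in counts was 50.3 ± 2.45 points. From RSEM-style to kallisto-style TPM the share of Sall4-201 rose in 3 of 3 libraries, by 8.54 ± 0.982 points, and that of Sall4-202 fell in 3 of 3, by 11.4 ± 1.17 points (p = 0.25 for each in the two-sided exact permutation test, its lowest value). Which table is nearer to the RNA in the cells was not tested.

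**Figure D3:**
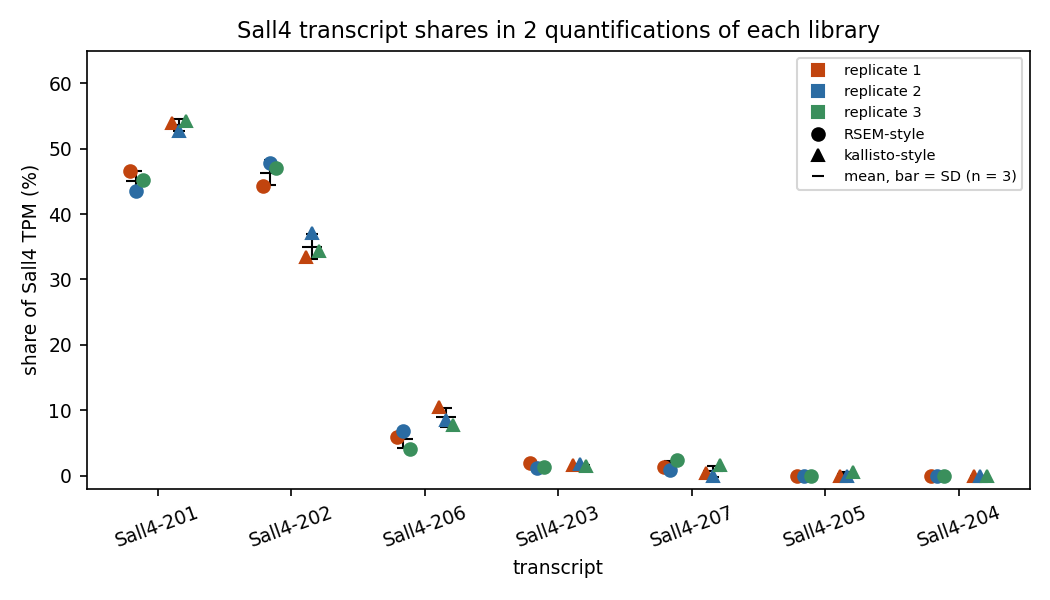
Share of Sall4 TPM (percent) taken by each annotated transcript, with 1 point per library (circles RSEM-style, triangles kallisto-style) and the mean with its SD (n = 3). Sall4-201 and Sall4-202 overlap in the RSEM-style tables and are apart in the kallisto-style tables, and the other transcripts lie at or below 10.5%.

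The other Sall4 transcripts were minor. Sall4-206 (773 nt, annotated without its 3′ end) starts from an alternative exon at 168765094 to 168765246 and was at 7.86, 8.52 and 4.79 TPM, on 34.2, 35.3 and 20.6 estimated counts. This was 5.60 ± 1.43% of the gene's TPM (n = 3), and 8.88 ± 1.44% in the kallisto-style tables. Sall4-203, the form with the shortened exon 2, was at 2.64, 1.37 and 1.49 TPM, or 1.45 ± 0.474% of the gene. Sall4-207, a fragment of 393 nt, was at 1.66, 0.99 and 2.83 TPM on 2.46, 1.39 and 4.13 estimated counts, and at 0.424, 0 and 1.36 TPM in the kallisto-style tables, so it was near the 3 counts that a count of 0 allows. The noncoding Sall4-204 and Sall4-205 had 0 counts in all RSEM-style tables, and in the kallisto-style tables Sall4-205 had 0.482 TPM in replicate 3 and 0 elsewhere.

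A noncoding gene overlaps the 5′ end of Sall4 on the other strand. Gm14261 (ENSMUSG00000085322.1, chromosome 2, 168766143 to 168768108, plus strand, a processed transcript) covers 1801 bases of the Sall4 locus, and 471 of the 5611 31-base words of Sall4 transcripts (8.39%) occur in it in reverse. It was at 3.09, 2.69 and 3.57 TPM, on 29, 24 and 33 counts. In the kallisto-style tables it was at 5.93, 5.37 and 5.70 TPM, on 114, 106 and 116 counts, a ratio of counts of 3.95 against 1.58 ± 0.0215 for Sall4 and a median of 1.67 over 10646 genes with at least 50 counts. Whether the counting used strand is not stated in the labels or headers, so reads of this pair in the shared stretch cannot be told apart with certainty.

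Sall1 (ENSMUSG00000031665.7, chromosome 8, 89027235 to 89044162, minus strand) has 1 annotated transcript of 5265 nt, whose 1323 codons hold 9 matches to the finger pattern, the most in the family. It was at 29.88, 25.18 and 24.79 TPM, on 1157, 930 and 948 counts. Replicate 1 was high, and replicates 2 and 3 were close together. In the kallisto-style tables the same order held, at 24.1, 19.4 and 18.9 TPM. Sall1 thus lay at the 57.9th percentile of the 11478 expressed protein-coding genes, while the nephron progenitor genes among which it acts in the kidney were mostly at or near 0, as given with the marker lists.

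Sall3 (ENSMUSG00000024565.9, chromosome 18, 80966376 to 80986771, minus strand) has a coding transcript of 7079 nt, Sall3-201, with 1248 codons and 7 matches to the finger pattern. The gene was at 4.07, 3.39 and 3.23 TPM, on 214, 170 and 168 counts, with replicate 1 again highest. All of its RSEM-style counts were on Sall3-201. The retained-intron transcript Sall3-202 was listed at 0 there and had 4.05 counts in replicate 2 alone of the kallisto-style tables. Sall3 is the closest relative of Sall1, with 58.5% of aligned residues identical between their translations, against 49.0% for Sall1 and Sall4, 47.7% for Sall3 and Sall4 and 35.3% to 42.4% for pairs with Sall2.

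The members share few exact 31-base words, and cross-assignment of reads between them was not tested. The transcripts of Sall1 share 17 of 5235 31-base words (0.325%) with other genes, those of Sall3 share 8 of 7450 (all with Sall1), and those of Sall2 and Sall4 share 0 on the same strand. The gaps between neighbours in the order of levels were far larger than the spread between libraries. On the log2(TPM + 1) scale Sall4 exceeded Sall1 by 2.20 ± 0.0746, Sall1 exceeded Sall3 by 2.60 ± 0.0180 and Sall3 exceeded Sall2 by 1.60 ± 0.228. Each held in every library (p = 0.25 in the two-sided exact permutation test, its lowest value here). As ratios of TPM the steps were 4.72 ± 0.256, 7.48 ± 0.173 and 7.38 ± 2.49 times, and 4.35 ± 0.0877, 6.80 ± 0.438 and 8.28 ± 2.02 times in the kallisto-style tables.

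Sall2 (ENSMUSG00000049532.11, chromosome 14, 52311172 to 52328762, minus strand) was the lowest member and was not called expressed. It was at 0.40, 0.63 and 0.49 TPM, on 14, 21 and 17 counts, with exact Poisson 95% intervals of 0.219 to 0.671, 0.390 to 0.963 and 0.285 to 0.785 TPM, which cover counting error only. The intervals overlap each other, and all lie below 1. In the kallisto-style tables Sall2 was at 0.403, 0.463 and 0.285 TPM.

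The low Sall2 signal was assigned to the downstream start only. Sall2-202 (4773 nt, 1002 codons) begins at an exon from 52316043 to 52316323, and Sall2-201 (5147 nt, 1004 codons) at an upstream exon from 52328103 to 52328762. Both have 7 matches to the finger pattern. Sall2-201 was listed at 0 in all 3 libraries of both quantifications, although 659 of its 31-base words (12.9%) and 285 of those of Sall2-202 (6.01%) are found in no other Sall2 transcript. A count of 0 allows 3 counts, which over the part of Sall2-201 that is not shared comes to 0.616, 0.646 and 0.624 TPM in replicates 1, 2 and 3 of the RSEM-style tables. That limit is as large as the level of the whole gene, so use of the upstream start was not detected at a depth that could miss it. Most words of Sall2-202 are shared with Sall2-201, and reads over its own first exon were not counted here.

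The sequences upstream of the 2 Sall2 starts are shown because both quantifications assign all Sall2 counts to 1 of them. They are from RefSeq promoters (GRCm38.p6), on the minus strand, with CG and TATAAA in capitals, each searched on both strands. The Sall2-201 stretch is shorter because the GENCODE start lies 92 bases upstream of the RefSeq start.
Sall2-201, chr14:52328763-52328920: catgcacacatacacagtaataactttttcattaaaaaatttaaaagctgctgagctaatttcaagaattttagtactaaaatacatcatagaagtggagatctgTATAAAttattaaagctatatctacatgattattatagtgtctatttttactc
Sall2-202, chr14:52316324-52316573: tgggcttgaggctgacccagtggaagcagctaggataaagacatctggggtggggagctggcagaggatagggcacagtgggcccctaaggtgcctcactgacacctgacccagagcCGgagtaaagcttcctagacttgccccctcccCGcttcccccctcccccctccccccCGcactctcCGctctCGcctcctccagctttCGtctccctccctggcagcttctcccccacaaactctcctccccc

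The 250 bases before the RefSeq start of Sall2-201, which had 0 counts, have 0 CG pairs, 28% G or C and 1 TATAAA. The 250 bases before Sall2-202, to which the counts were assigned, have 6 CG pairs, 64.4% G or C and 0 TATAAA. Over 32851 RefSeq promoters of 250 upstream bases, the medians were 6 CG pairs and 52.4% G or C, and 12.4% had TATAAA. The Sall2-202 stretch thus has the median number of CG pairs. These are descriptions of the sequence and show nothing of what drives either start.

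No member's spread between replicates passed the test against genes of like level. The coefficient of variation of TPM was 5.69% for Sall4, 10.6% for Sall1, 12.5% for Sall3 and 22.9% for Sall2, against a median of 7.88% over expressed protein-coding genes. By edgeR's quasi-likelihood fit, which sets each gene's dispersion against the trend, 0 of the 4 were called and 0 had an unadjusted p under 0.05 (adjusted p = 0.987 for Sall1, Sall2 and Sall3 and 0.991 for Sall4, with Benjamini-Hochberg adjustment). Over all alternatives run the adjusted p stayed between 0.904 and 0.995. Of 13391 genes tested, 5 were called (0.0373%), and 610 had an unadjusted p under 0.05.

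Set against counting noise alone, the spread of Sall1 and Sall4 passed the test. In a chi-square test against Poisson over the 13391 genes with Benjamini-Hochberg adjustment, Sall1 (adjusted p = 0.0174) and Sall4 (adjusted p = 0.0429) were called, and Sall3 (0.431) and Sall2 (0.619) were not. The background was 1656 genes (12.4%), not matched to these members for counts. The call rested on replicate 1: without it the adjusted p was 0.962 for Sall1 and 0.807 for Sall4 by the same chi-square test, and the calls over all genes fell to 27. The Sall4 call was also lost without replicate 3 (chi-square adjusted p = 0.279), while Sall1 was still called (0.0481). Sall3 was called with kallisto-style counts (chi-square adjusted p = 0.0128) and with scaling to the ERCC spike-ins (0.0133), settings under which the calls over all genes rose to 2800 and 4644.

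The excess in replicate 1 ran with transcript length. Sall1, Sall3 and Sall4 were highest in replicate 1 in both quantifications, and Sall2 was not. The log2 ratio of TPM in replicate 1 to that in replicates 2 and 3 was 0.25 and 0.27 for Sall1 (5265 nt), 0.26 and 0.33 for Sall3 (7079 nt) and 0.09 and 0.16 for Sall4 (mean length 3567 nt). The median over 1009 expressed genes of 5000 to 8000 nt was 0.19 and 0.16, and that over 2887 genes of 3000 to 5000 nt was 0.12 and 0.10. In 1090 genes under 1000 nt it was -0.018 and -0.015. The 3 members thus moved in the direction of other genes of their length. The part of length in their excess was not tested. Sall2 (4773 nt), with 14 to 21 counts, had ratios of -0.66 and -0.29.

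**Figure D4:**
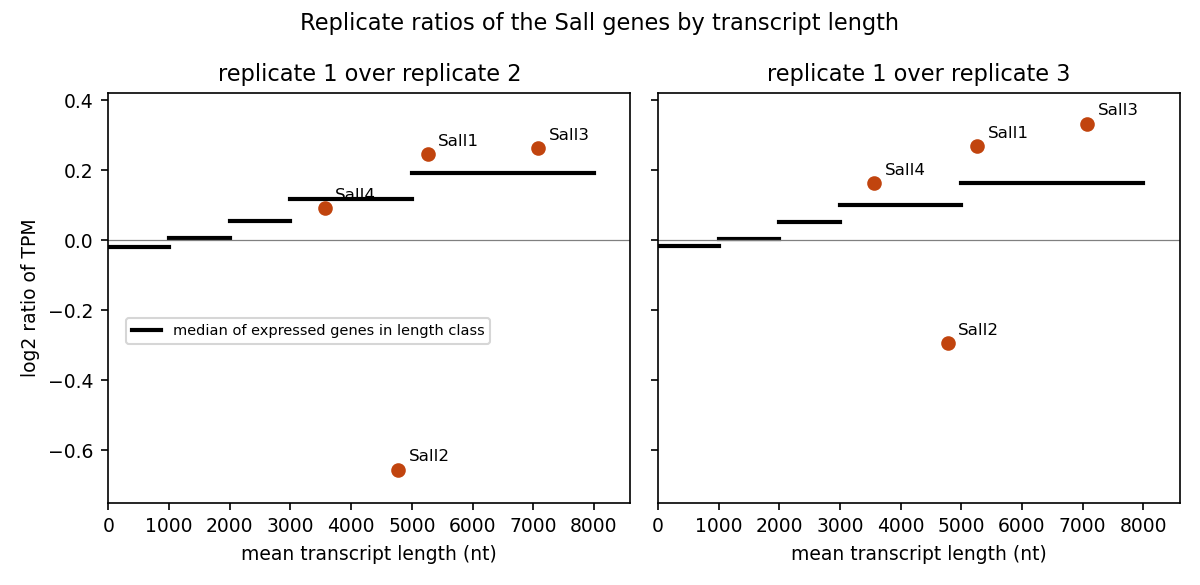
Log2 ratio of TPM in replicate 1 to replicate 2 (left) and replicate 3 (right) against mean transcript length in nt, with a point for each Sall gene and a bar at the median of expressed genes with at least 50 counts in each length class. Sall1, Sall3 and Sall4 lie above 0, near or above the bar of their class, and Sall2 lies below 0.

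The 2 quantifications gave the 3 expressed members lower levels in the kallisto-style tables, as they did for most genes. The kallisto-style minus RSEM-style difference of log2(TPM + 1) was -0.47 ± 0.0581 (SE, n = 3) for Sall4, -0.34 ± 0.0478 for Sall1 and -0.17 ± 0.0555 for Sall3, lower in 3 of 3 libraries for each. The limma adjusted p was 0.00317, 0.00388 and 0.0442, and none of the 3 reached the minimum difference of 1 that a call needed. Sall2 did not reach a TPM of 1 in either table in all libraries and was not tested. Among 14795 genes tested, 1583 (10.7%) were called higher in the kallisto-style and 354 (2.39%) higher in the RSEM-style tables, and the median difference was -0.25. Sall4 and Sall1 therefore lay below this median and Sall3 above it.

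Of the 6 Sall transcripts tested, Sall4-202 had the largest difference between quantifications. Its kallisto-style minus RSEM-style difference of log2(TPM + 1) was -0.86 ± 0.0669 (SE, n = 3), against -0.22 ± 0.0599 for Sall4-201, -0.34 ± 0.0562 for Sall1-201 and -0.17 ± 0.0672 for Sall3-201. The limma adjusted p was 0.00387, 0.0430, 0.0150 and 0.0958. Sall4-203 (-0.18 ± 0.126) and Sall4-206 (0.18 ± 0.164) did not pass (limma adjusted p = 0.273 and 0.386). None of the 6 Sall transcripts tested reached the minimum difference of 1, against a background of 3490 of 28903 transcripts higher in the kallisto-style (12.1%) and 1960 higher in the RSEM-style tables (6.78%). The other 6 Sall transcripts stood too low to be tested.

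Nearly all subunit genes of NuRD, the corepressor that the SALL motif recruits, were expressed as RNA. Of 15 NuRD genes 14 were expressed, beside 52.1% of all protein-coding genes, with a median of 112 TPM. The histone-binding subunit gene Rbbp7 was highest at 329 ± 9.65 TPM (n = 3), then Mbd3 at 191 ± 11.7 and the deacetylase genes Hdac1 at 160 ± 5.13 and Hdac2 at 148 ± 4.02. In the kallisto-style tables Hdac1 lay above Mbd3, at 222 against 143.5 TPM. Mbd3 lay above Mbd2 (27.6 ± 0.805), Gatad2a (119 ± 2.70) above Gatad2b (3.33 ± 0.390, or 10.9 in the kallisto-style tables), and Mta3 (130 ± 4.68) and Mta2 (112 ± 3.45) above Mta1 (61.3 ± 6.52). Among the remodeller genes Chd4 was at 46.5 ± 7.61, Chd3 at 11.4 ± 1.39 and Chd5 lowest at 1.01 ± 0.163 TPM. Sall4 RNA, summed over its transcripts, was therefore more abundant than RNA of Chd4, its remodeller partner, at 132.74 against 55.15, 124.5 against 40.7 and 118.54 against 43.79 TPM in replicates 1, 2 and 3. The full-length form Sall4-201 alone was nearer to Chd4, at 61.84, 54.14 and 53.64 TPM. Rbbp4, a paralog of Rbbp7, was at 76.8, 116.68 and 114.9 TPM, so replicate 1 was low and the others were close together.

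The listed pluripotency factor genes, those of OCT4 and NANOG among them, were all expressed (14 of 14), beside 52.1% of all protein-coding genes. Their median was 169 TPM, above Sall4 itself. Nanog was at 505 ± 10.9 TPM (n = 3), Pou5f1, the OCT4 gene, at 495 ± 100.4 and Zfp42, the REX1 gene, at 425 ± 4.24. Zfp281 was lowest at 23.3 ± 1.37 TPM, near the level of Sall1. Pou5f1 was highest in replicate 1, at 610.5 against 431 and 442 TPM in replicates 2 and 3, as Sall1 and Sall4 were. Whether its excess ran with transcript length was not tested.

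The listed genes of the CRL4-CRBN ubiquitin ligase, through which thalidomide leads to degradation of human SALL4 protein, were also all expressed (5 of 5). The share over all protein-coding genes was 52.1%. Rbx1 was at 433 ± 10.3 TPM (n = 3), the adaptor gene Ddb1 at 396 ± 26.0 and Cul4b at 141 ± 2.65. Crbn, the gene of the drug-binding receptor, was lowest at 28.2 ± 2.14 TPM. RNA levels give no measure of SALL4 protein.

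Of the genes that accompany SALL factors in other tissues, most nephron progenitor and neural genes were not expressed. The germ cell list was mixed. For comparison, 52.1% of all protein-coding genes were expressed. Of 7 nephron progenitor genes, the context of Sall1 in the kidney, 1 was expressed, Eya1 at 7.26 ± 0.970 TPM (n = 3). Six2 was at 0.260 and Pax2 at 0.0933 TPM, and the other 4 had 0 counts, Gdnf among them. Of 8 neural genes 3 were expressed, with the tubulin gene Tubb3 at 10.6 ± 1.88, the filament gene Nes at 5.34 ± 0.924 and the microtubule-binding gene Map2 at 3.71 ± 0.823 TPM, and 3 had 0 counts, Neurog2 among them. Of 7 genes of spermatogonia and germ cells 4 were expressed: the receptor gene Kit was at 156 ± 16.6, Dazl at 63.4 ± 5.52 and Ddx4 at 5.56 ± 0.360 TPM, and Nanos2 had 0 counts. Kit and Dazl lay above the median expressed protein-coding gene (19.7 TPM), while the median of the germ cell list was 3.27 TPM, below it. In bulk RNA a small number of cells of another type and a low level in every cell cannot be told apart.

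Most markers of trophoblast, primitive endoderm and feeder fibroblasts were not expressed, with the fibroblast gene Fbln1 the highest of them. Among all protein-coding genes, 52.1% were expressed. Of 8 trophoblast genes 3 were expressed, led by Ascl2 at 3.68 ± 0.364 TPM (n = 3), Krt7 at 1.99 ± 0.192 and Eomes at 1.85 ± 0.524 (Krt7 led in the kallisto-style tables, at 6.76 TPM against 2.91 for Ascl2), with the defining factor gene Cdx2 at 0.0867 and Hand1 at 0. Of 7 primitive endoderm genes 3 were expressed, Gata4 at 1.87 ± 0.0872, Sox17 at 1.55 ± 0.528 and Dab2 at 1.52 ± 0.316, and Foxa2 was lowest at 0.0700 TPM. Of 9 fibroblast genes 2 were expressed, Fbln1 at 57.7 ± 4.53 and Pdgfrb at 1.53 ± 0.275, Thy1 was at 1.06 ± 0.544, and 4 had 0 counts, Lum among them. The expressed fibroblast genes numbered 3 in the kallisto-style tables, and 3 when replicate 3 was left out. The summed level of the fibroblast list ran from 55.8 to 64.8 TPM over the libraries, most of it Fbln1. The part of such cells in the Sall values was not tested.

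**Figure D5:**
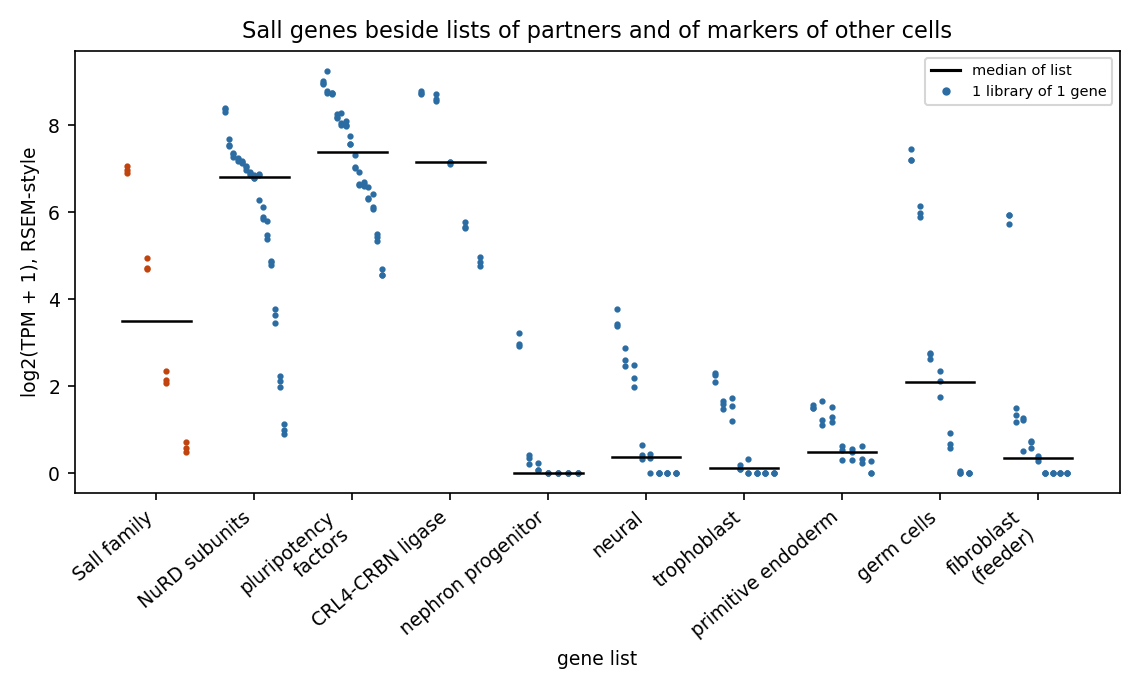
Log2(TPM + 1) of each gene of 10 lists (1 point per library, RSEM-style, genes ordered by mean within a list, Sall genes in a second colour) with a line at the median of each list. Sall4 lies at the level of the medians of the NuRD, pluripotency and ligase lists. The nephron progenitor, neural, trophoblast, primitive endoderm, germ cell and fibroblast medians lie below the Sall3 mean (3.56 TPM). The germ cell median (3.27 TPM) is the nearest to it.

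Of the 9 lists other than the Sall genes, edgeR called 0 members for spread between replicates. By the chi-square test against counting noise, 5 of 15 NuRD genes, 8 of 14 pluripotency genes, 2 of 5 ligase genes and 1 of the 4 germ cell genes tested were called, beside 2 of 4 Sall genes and 12.4% of all genes tested. The test detects smaller spread at higher counts, and total counts ran, for example, from 52 for Sall2 to 12901 for Pou5f1. Since the background was not matched for counts, these shares show no trait of a list.

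By likeness of level over the 3 libraries (Euclidean distance of log2(TPM + 1)), the protein-coding genes nearest to Sall4 were Mcm10, a replication gene, at 126 ± 6.57 TPM (n = 3, distance 0.0166) and Pias2, a SUMO ligase gene, at 124 ± 6.86 TPM (distance 0.0208). Nearest to Sall1 were Cabp1, a calcium-binding protein gene, at 26.6 ± 2.71 TPM (distance 0.0234) and the integrin gene Itga5 at 26.45 ± 2.65 TPM (distance 0.0281). Nearest to Sall3 were Pitpnm2 at 3.52 ± 0.498 TPM (distance 0.0387) and the olfactory receptor gene Olfr1459 at 3.50 ± 0.448 TPM (distance 0.0401). With 3 libraries such a distance is mostly a likeness of level, and no correlation was computed.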

How the data were processed

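Total RNA-seq of 3 F121-9 libraries was used as deposited, on mm10 with GENCODE M21 per the file headers and deposited notes. The authors deposited, per library, a gene and a transcript table in RSEM's column layout and a transcript table in kallisto's layout. The deposited expected counts (estimated counts) are not normalized, and the deposited TPM values are scaled to a fixed sum over all features, spike-ins included. Not given in the sources used here: quantifier, aligner, versions and strandedness of the counting. Kallisto-style transcripts were summed to genes. Rows of 96 ERCC spike-ins and 26249 rows without a mouse gene ID entered neither library sizes nor tests. No sample column was left unused (0).

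The members and gene lists were chosen with earlier results of these data known. The genes named are the Sall genes and their transcripts, the 3 highest and the lowest of each list, all paralogs of named NuRD subunits, genes that overlap a Sall gene, and the 2 nearest protein-coding genes of each Sall gene with a mean TPM of at least 1. Cdx2 was chosen after its values were seen. Counts were rounded. The spread between replicates was tested with edgeR 4.0.16 (filterByExpr, TMM, intercept-only quasi-likelihood fit, dispersion against the trended prior) and by chi-square against a Poisson model (2 degrees of freedom). Quantifications were compared with limma 3.58.1 (R 4.3.3) on differences of log2(TPM + 1), for features that reached a TPM of 1 in either table in each of the 3 libraries. A call needed a Benjamini-Hochberg adjusted p under 0.05 and, for limma, a difference of at least 1. Such differences understate the change of low genes. DESeq2 1.42.0 gave alternative size factors and dispersions. Other values came from Python 3.11.15 with scipy 1.17.1. C2H2 matches are to a pattern of 2 to 4 residues between cysteines, 12 in the middle and 3 to 5 between histidines, in translated M21 coding sequences, and identities are from global alignment. Scripts were tested on simulated data. Alternatives were other quantifications, pseudocounts (0.1), scalings, filters, TPM thresholds (0.5 and 5) and leaving out each replicate.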

Additional observations from a re-analysis of the deposited data

How the results depend on the processing

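The 3 differences between neighbours in the order of Sall levels kept their direction under all alternatives run for them. The difference of Sall4-201 and Sall4-202 shares (-1.26 points) reversed with kallisto-style TPM (18.6), with shares of counts (33.2) and without replicate 2 (0.261), and ran from -3.05 to 0.261 with a replicate left out. Genes called by edgeR for spread (5) numbered 2 with ERCC scaling, 34 without the filter on low counts, 7 to 14 when each replicate was omitted in turn, and 16 on kallisto-style counts, an alternative added after the data were seen. Genes beyond counting noise (1656) numbered 4644 with ERCC scaling, 2800 on kallisto-style counts and 27 to 1471 when each replicate was omitted, with 27 for the omission of replicate 1. Without the minimum difference, 11481 genes (1937) and 17807 transcripts (5450) differed between quantifications by limma, with Sall1, Sall3, Sall4, Sall1-201, Sall4-201 and Sall4-202 among them. At a TPM of at least 5 the expressed members numbered 1 in the neural, 0 in the trophoblast, 0 in the primitive endoderm and 1 in the fibroblast list. Over all values of single members under alternatives, those just named included, 113 stayed as they were, 10 moved, 8 newly passed and 3 no longer passed. The cause was not tested. Depth limits Sall2, whose 52 counts in all gave overlapping intervals in the 3 libraries. No comparison between groups could be paired, since the libraries form 1 group.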
